A study of Mus musculus with 12 samples.

Results

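The AP-1 genes examined here were Jun, Junb, Jund, Fos, Fosb, Fosl1, Fosl2, Batf, Atf3 and Maff, 10 of the 18193 genes that a probe set of 1 gene symbol represents on the Affymetrix MG430 v2 array. They were chosen as genes of AP-1 proteins and their close bZIP relatives, because c-Jun is the partner of PU.1 that the knock-in mutation was made to cut off. Together they have 14 probe sets, groups of short oligonucleotides that read 1 transcript. For each gene the brightest probe set, by its mean over the 12 arrays, was used, and Jun, Jund, Fosl1 and Fosl2 have a second probe set that served as a check. The arrays, 3 for each group, measured ST-HSC from KI and from WT mice, and GMP-like KI cells beside WT GMP. KI cells were homozygous for the Q202L point mutation in the Ets domain of PU.1 (the gene Spi1), and WT cells came from littermates out of crosses of heterozygous mice. The targeting construct also placed a neomycin cassette flanked by loxP sites between neighbouring exons of PU.1, which the targeting scheme shows as removed by Cre. Of the pair of Q202L founder lines that were kept, the sources used here do not name the one behind the arrays. The sample records describe the cells as sorted from newborn liver of C57Bl/6 mice, with no treatment, whereas the study's text speaks of fetal liver and of a mixed background.

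ST-HSC, the short-term hematopoietic stem cells, were sorted as cells without lineage markers that carry Sca-1 and c-kit and lack CD150, and they are CD48+ in the records but CD48- in the study's text. GMP, the granulocyte-macrophage progenitors, were sorted as lineage-negative, Sca-1-, c-kit+ cells high for CD16/32. Their CD34 gate is positive in the records, whereas the study's text gives an intermediate CD34 for the KI GMP-like cells. The log2 level of Cd34 was 6.66 to 6.86 in the KI GMP-like arrays and 9.53 to 9.80 in WT GMP, and that of Slamf1, which encodes CD150, was 6.50 to 6.54 in KI and 4.05 to 4.90 in WT ST-HSC. Cd48 was bright in all 12 arrays, from 10.87 to 12.06. Xist, a transcript of the inactive X in females, read 10.67 to 11.74 in WT replicates 1 and 3 of both populations and at 2.98 to 3.78 in the other 8 arrays. The records do not name the animals behind a replicate or their sex, so the spread behind the p-values, which is that between these samples, may in part be technical. Spi1 was measured at 8.08 to 8.18 in KI and 7.89 to 8.03 in WT ST-HSC, and at 8.28 to 8.95 in KI GMP-like cells against 7.95 to 8.47 in WT GMP. Its probes do not tell the point mutation from the wild-type sequence and so check no label.

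AP-1 is a dimer of basic leucine zipper (bZIP) proteins. Jun proteins pair with each other or with Fos proteins and bind a short palindrome, while Batf, Atf3 and the small Maf proteins are bZIP relatives that pair within and beyond this set. The MAP kinases induce several of these genes within minutes of a stimulus and phosphorylate the proteins, so mRNA levels show only a part of AP-1 activity. In myeloid cells c-Jun is known as a coactivator that PU.1 brings to promoters of the monocyte lineage.

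The promoters of the members were searched for the letters that AP-1 and PU.1 proteins read, to show where these genes carry them themselves. Sequences of the 250 bases before the start were found in RefSeq (GRCm38.p6) for 9 of the 10 members, all but Fosl1. Some members have more than 1 start, so these were 11 promoters. The AP-1 site TGANTCA, on either strand, was in 0 of the 11 member promoters, against 6.75% of all 32851 promoters. The letters GAGGAAGT, a form of the PU.1 site (2.44% of all promoters), and the CArG box of serum response elements (1.47%) were also in 0 of the 11. Bases farther upstream were not searched, so sites beyond these 250 bases would be missed. Only GAGGAAGT was searched for PU.1, so other forms of its site would be missed as well. At shares of 2.44% and 1.47%, absence from 11 promoters says little about the members. The spaced form TGANNTCA, of which the cAMP response element TGACGTCA is 1 case, was in 11.9% of all promoters and in 4 of the 11 member promoters. These belong to 3 of the 9 members, Jun, Jund and Maff, the last at each of a pair of start sites. These stretches are printed below with the match in capitals, and a match is a description of letters, not of binding.
Jun, chr4:95052223-95052307, minus strand, match 45 bases before the start: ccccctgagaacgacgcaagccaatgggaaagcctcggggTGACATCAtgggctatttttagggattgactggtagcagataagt
Jund, chr8:70697638-70697725, plus strand, match 61 bases before the start: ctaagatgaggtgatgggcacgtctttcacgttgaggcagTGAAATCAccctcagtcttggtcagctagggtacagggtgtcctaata
Maff, chr15:79347451-79347519, plus strand, match 29 bases before the start: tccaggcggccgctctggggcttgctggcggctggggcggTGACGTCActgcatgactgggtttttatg
Maff, chr15:79348317-79348401, plus strand, match 45 bases before the start: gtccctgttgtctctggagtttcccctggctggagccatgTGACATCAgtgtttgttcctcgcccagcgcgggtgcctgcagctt

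The question was how the transcripts of these PU.1 partners stood in cells with a PU.1 mutated to prevent its contact with c-Jun. In ST-HSC, Fosl1 was the 1 member that rose in KI cells, and in GMP it was Jund. No member fell in either population, where 1.68% of all genes in ST-HSC and 1.4% in GMP did. Calls are at an adjusted p under 0.05 in limma, with Benjamini-Hochberg adjustment over 45037 probe sets. The 1 of 10 members called higher in ST-HSC stands beside 1.33% of all genes, and the 1 of 10 in GMP beside 1.19%. For calls in either direction the background was 3.01% in ST-HSC and 2.59% in GMP. At an unadjusted p under 0.05, 2 members were higher in KI ST-HSC, and 4 were higher and 1 was lower in KI GMP-like cells, where 14.3% and 15.9% of all genes had such a p in either direction. The median difference of the members was -0.26 in ST-HSC and 0.41 in GMP, beside -0.02 and -0.03 over all genes. In RNA of sorted populations, fewer cells of a type and less RNA per cell cannot be told apart.

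**Figure D1:**
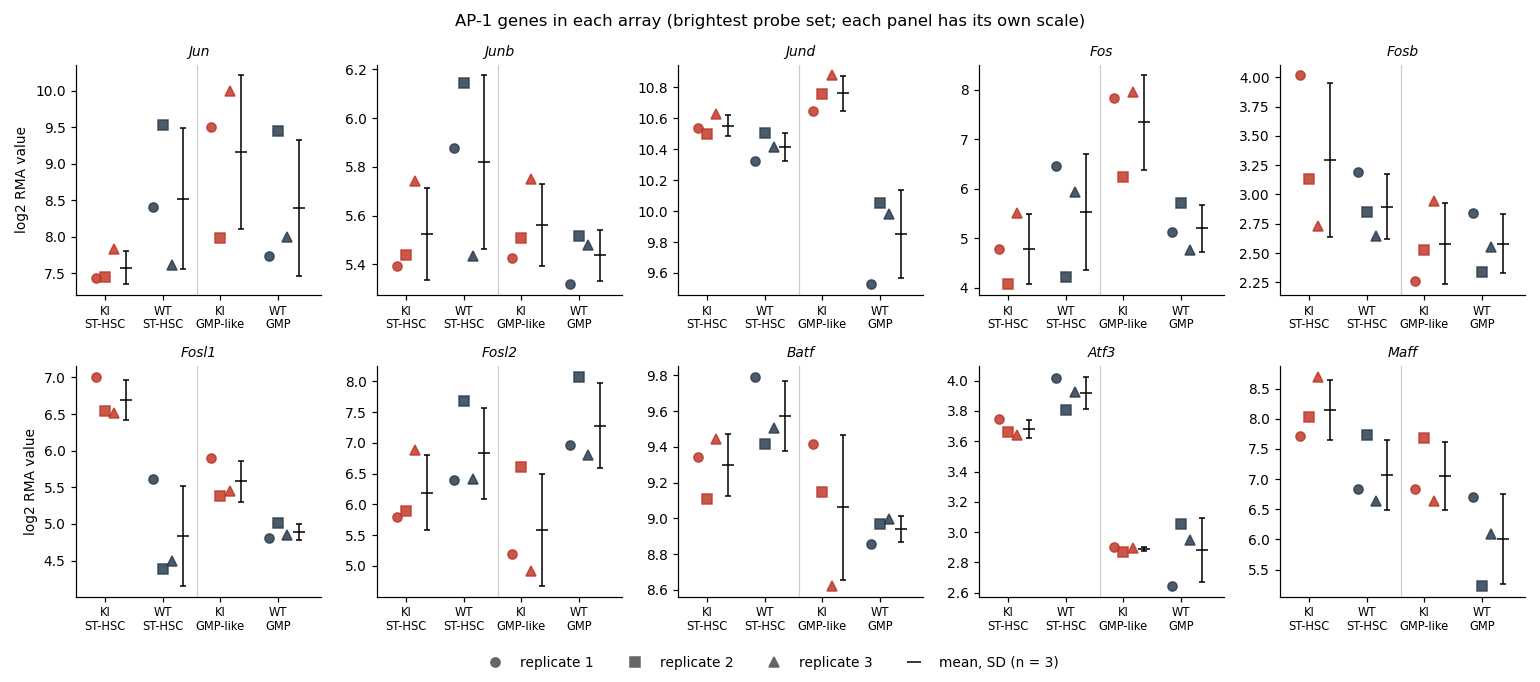
Log2 RMA value of the brightest probe set of each AP-1 gene (y axis, own scale in each panel) in the 12 arrays, by group (x axis). Red points are KI and dark points WT, the symbol gives the replicate, and the bars beside them are mean and SD (n = 3). The 3 KI ST-HSC arrays lie above the WT arrays for Fosl1, and the 3 KI GMP-like arrays above WT GMP for Jund, Fos and Fosl1, while Jun spreads by up to 2.02 within a group.

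Among the Jun proteins, c-Jun itself showed no difference that passed the test. Its log2 levels were 7.44, 7.44 and 7.83 in KI ST-HSC replicates 1, 2 and 3, and 8.41, 9.53 and 7.61 in the WT ST-HSC replicates. In KI GMP-like cells they were 9.51, 7.98 and 10.00, and in WT GMP 7.73, 9.46 and 7.99. The KI and WT arrays overlapped in both populations, and within 3 of the 4 groups a single array stood 1 log2 unit or more from another. In both populations WT replicate 2 was the highest WT array, and KI GMP-like replicate 2 was the lowest of its group. The spread of Jun between replicates was larger than that of 96.8% of all probe sets. KI minus WT was -0.95 in ST-HSC (SE 0.620, 95% interval -2.32 to 0.43, limma adjusted p = 0.606) and 0.77 in GMP (SE 0.620, interval -0.60 to 2.14, adjusted p = 0.671). Exact two-sided permutation tests of the 3 against 3 arrays gave p = 0.2 in ST-HSC and p = 0.3 in GMP, where the smallest p such a design allows is 0.1. Without WT replicate 2 the difference was -0.44 in ST-HSC and 1.30 in GMP, and neither was called. With Xist as a covariate of the arrays the GMP difference was -0.28, and without the 2 WT GMP arrays of high Xist it was -0.29, so its direction depends on those arrays. In ST-HSC the same settings gave -2.02 (adjusted p = 0.111) and -1.96 (adjusted p = 0.23), over 1.5 times the difference of all arrays. The second of these settings keeps only replicate 2 as WT, and that array is assumed to vary like the other groups. Since Xist was low in all KI arrays, the first setting leans on WT replicate 2 against WT replicates 1 and 3. It thus also sets KI mainly against WT replicate 2.

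The second Jun probe set spread even more, beyond 99.6% of all probe sets. In KI ST-HSC it read 6.57, 7.61 and 8.03 and in WT ST-HSC 7.38, 7.71 and 7.39, where the KI values enclose those of WT. In KI GMP-like cells it read 8.50, 7.06 and 8.58, and in WT GMP 5.03, 8.58 and 4.32. WT GMP replicate 2 equalled the highest KI array, while the other WT GMP arrays lay more than 2 units below every KI array. The difference in GMP was 2.07 (SE 0.915, interval 0.04 to 4.09) with a limma adjusted p of 0.335. Without WT GMP replicate 2 it was 3.37 and called (adjusted p = 0.0120), and without the 2 WT GMP arrays of high Xist it was -0.53 (adjusted p = 0.863). In ST-HSC it was -0.09 (adjusted p = 0.982). Over the 12 arrays, each centred on its population, the 2 Jun probe sets had a Pearson r of 0.707.

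WT replicate 2 also stood apart in the heat shock gene Hspa1a, at 3.81 in ST-HSC and 5.88 in GMP, with 2.49 to 2.85 in the other 10 arrays, and in low Xist. In these arrays the high Jun, the Hspa1a signal and the low Xist occurred together, and their part in the Jun values was not tested.

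**Figure D2:**
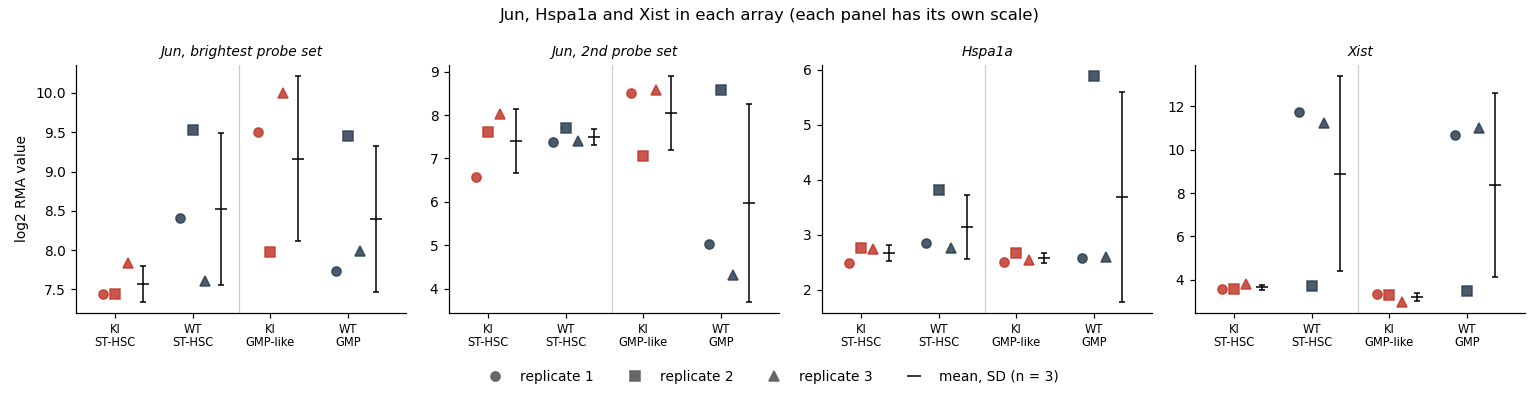
Log2 RMA values (y axis, own scale in each panel) of both Jun probe sets, Hspa1a and Xist in each array by group (x axis), with KI in red, WT dark, a symbol for each replicate, and mean and SD (n = 3). WT replicate 2, the dark square, is the highest WT array of Jun and Hspa1a and the lowest of Xist in both populations, with Xist at 3.70 in ST-HSC and 3.46 in GMP.

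Junb, whose product often opposes that of Jun, showed no difference that passed. Its levels were 5.39, 5.44 and 5.74 in KI and 5.88, 6.14 and 5.44 in WT ST-HSC. In GMP they were 5.43, 5.51 and 5.75 in KI and 5.32, 5.52 and 5.48 in WT. All 4 groups overlapped with their counterpart, and the differences were -0.29 in ST-HSC (interval -0.71 to 0.12, limma adjusted p = 0.590) and 0.12 in GMP (interval -0.29 to 0.54, adjusted p = 0.857).

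Jund, the most broadly expressed Jun gene, was higher in KI GMP-like cells. It read 10.65, 10.75 and 10.88 there and 9.53, 10.05 and 9.98 in WT GMP. The lowest KI array thus lay above the highest WT array, a separation that 8.26% of all genes showed in this direction in GMP. The difference was 0.91 on the log2 scale (SE 0.151, interval 0.57 to 1.24, limma adjusted p = 0.0137), or 1.88-fold (1.49 to 2.37). The exact two-sided permutation test gave its smallest value, p = 0.1. In ST-HSC Jund read 10.54, 10.50 and 10.62 in KI and 10.32, 10.50 and 10.41 in WT, with a difference of 0.14 (adjusted p = 0.799). The difference of the KI effects, GMP minus ST-HSC, was 0.77 (SE 0.214, adjusted p = 0.314) and did not pass. The second Jund probe set, much dimmer, read 5.53, 6.01 and 5.56 in KI GMP-like cells and 5.79, 6.25 and 5.45 in WT GMP. Its difference was -0.13 (adjusted p = 0.933), and its r with the first probe set was -0.07 over 12 population-centred arrays, so the 2 probe sets did not move together. The Jund call did not hold without KI GMP-like replicate 3 (adjusted p = 0.0527), with the Xist level as a covariate (0.76, adjusted p = 0.0786) or without the WT arrays of high Xist (0.71, adjusted p = 0.167). It was also lost in a fit of only the 6 GMP arrays (adjusted p = 0.123), in the methods' t-test after adjustment (adjusted p = 0.306), in SAM and for the mean of both probe sets (0.39, adjusted p = 0.405).

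**Figure D3:**
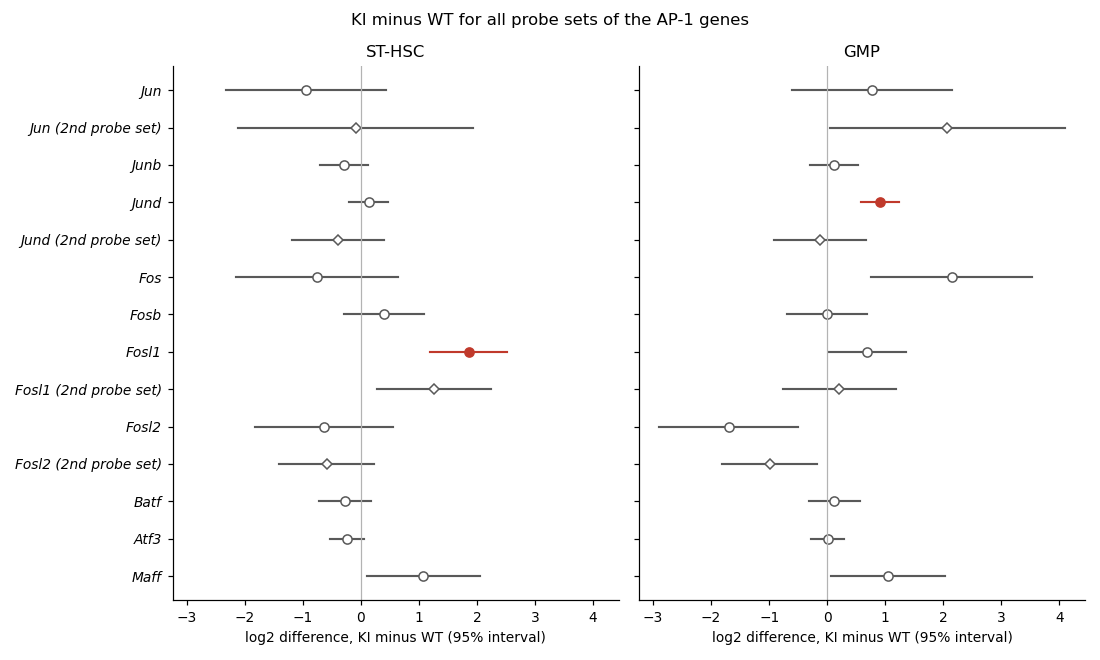
KI minus WT on the log2 scale (x axis) for the 14 probe sets of the AP-1 genes (y axis) in ST-HSC (left) and GMP (right). Circles are the brightest probe set of a gene, diamonds the second, lines the 95% interval of the limma fit, and filled red symbols the calls at an adjusted p under 0.05. Fosl1 at 1.86 in ST-HSC and Jund at 0.91 in GMP are the filled ones, and the intervals of Jun are among the widest.

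Of the Fos proteins, which cannot pair with each other and need a Jun partner, Fosl1 showed the clearest difference in ST-HSC. Fosl1 encodes Fra-1, a Fos relative without the transactivation domain of c-Fos. It read 7.01, 6.55 and 6.52 in KI ST-HSC and 5.61, 4.39 and 4.49 in WT ST-HSC. All KI arrays lay above all WT arrays, as in 10.9% of all genes in ST-HSC, and WT replicate 1 was the WT array closest to them. The difference was 1.86 (SE 0.299, interval 1.20 to 2.52, limma adjusted p = 0.00871), or 3.63-fold (2.29 to 5.74). In GMP Fosl1 read 5.90, 5.38 and 5.45 in KI GMP-like cells and 4.81, 5.02 and 4.84 in WT. The KI arrays were again above all WT arrays, with a difference of 0.69 (SE 0.299, interval 0.03 to 1.35) that did not pass (adjusted p = 0.323). The difference of the KI effects was -1.17 (SE 0.423, adjusted p = 0.497). The second Fosl1 probe set, below the array median in 11 of 12 arrays, read 3.87, 4.40 and 5.61 in KI and 4.15, 2.98 and 2.96 in WT ST-HSC, where the arrays overlapped. Its difference of 1.26 had an adjusted p of 0.232. The call of the first probe set held in all 12 fits that left out 1 array, with adjusted p up to 0.0408. It was lost in a fit of the 6 ST-HSC arrays alone (adjusted p = 0.0657), in the methods' t-test after Benjamini-Hochberg adjustment (adjusted p = 0.268) and in SAM.

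Fos, the classic immediate early gene, had the largest difference of the members in GMP without passing. It read 7.83, 6.24 and 7.95 in KI GMP-like cells and 5.12, 5.70 and 4.76 in WT GMP. All KI arrays were above all WT arrays, and KI replicate 2 was the lowest KI array, as it was for Jun. The difference was 2.14 (SE 0.628, interval 0.75 to 3.53) with a limma adjusted p of 0.121. In ST-HSC it read 4.77, 4.07 and 5.50 in KI and 6.47, 4.21 and 5.93 in WT. There the arrays overlapped and the difference was -0.75 (interval -2.14 to 0.64, adjusted p = 0.707). It was 0.57 without the WT ST-HSC arrays of high Xist. The difference of the KI effects was 2.90 (SE 0.888, adjusted p = 0.382).

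Fosl2, which encodes Fra-2, was the 1 member whose KI arrays all lay below WT in GMP, a separation shown by 11.1% of all genes. It read 5.20, 6.62 and 4.92 in KI GMP-like cells and 6.97, 8.07 and 6.80 in WT GMP. In ST-HSC it read 5.80, 5.89 and 6.89 in KI and 6.39, 7.69 and 6.41 in WT, and the arrays overlapped. Replicate 2 was the highest array of both GMP groups and of WT ST-HSC. The differences were -1.70 in GMP (SE 0.539, interval -2.89 to -0.50, limma adjusted p = 0.153) and -0.64 in ST-HSC (adjusted p = 0.713). The second probe set lay below WT in GMP as well, with 4.26, 4.47 and 4.64 in KI and 5.62, 5.95 and 4.77 in WT. Its difference was -0.99 in GMP (adjusted p = 0.236) and -0.59 in ST-HSC (adjusted p = 0.579). With Xist as a covariate this second probe set was called lower in both populations, at -1.32 in ST-HSC (adjusted p = 0.0405) and -1.71 in GMP (adjusted p = 0.0173). The first probe set was called in neither (adjusted p = 0.218 and 0.0562). The covariate fit leans on WT replicate 2, the WT array of low Xist. There the second probe set was highest, at 6.26 in ST-HSC and 5.95 in GMP, and it was below the array median in 7 of 12 arrays. Fosb, the remaining Fos gene, was below the array median in all 12 arrays, from 2.26 to 4.02, and its differences were 0.40 in ST-HSC (adjusted p = 0.681) and 0.00 in GMP (adjusted p = 0.999).

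Of the bZIP relatives, Maff was the 1 with differences of similar size in both populations. Maff encodes a small Maf protein that has no transactivation domain and pairs with NF-E2 p45, the product of Nfe2, in erythroid and megakaryocytic cells. It read 7.71, 8.03 and 8.69 in KI and 6.84, 7.74 and 6.64 in WT ST-HSC. In GMP it read 6.83, 7.69 and 6.64 in KI GMP-like cells and 6.71, 5.23 and 6.08 in WT. In each population 1 KI array fell below the highest WT array, replicate 1 in ST-HSC and replicate 3 in GMP, so the groups overlapped. The differences were 1.08 in ST-HSC (SE 0.441, interval 0.10 to 2.05, limma adjusted p = 0.320) and 1.05 in GMP (SE 0.441, interval 0.07 to 2.02, adjusted p = 0.305).

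Batf, whose product pairs with Jun proteins in place of Fos, was bright in every array, from 8.62 to 9.79. It read 9.34, 9.11 and 9.44 in KI and 9.79, 9.42 and 9.50 in WT ST-HSC, and 9.42, 9.14 and 8.62 in KI GMP-like cells against 8.86, 8.97 and 8.99 in WT GMP. The arrays overlapped, and the differences were -0.27 in ST-HSC (adjusted p = 0.654) and 0.12 in GMP (adjusted p = 0.871). Atf3, a stress-induced repressor, was below the array median in all 12 arrays. It read 3.75, 3.66 and 3.64 in KI and 4.02, 3.81 and 3.93 in WT ST-HSC, where the KI arrays all lay below WT, as in 11.2% of all genes. This difference was -0.24 (interval -0.53 to 0.05, adjusted p = 0.507). In GMP Atf3 read 2.87 to 2.90 in KI and 2.64 to 3.05 in WT, with a difference of 0.01 (adjusted p = 0.993).

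None of the 10 members was called in limma for a difference of the KI effects between GMP and ST-HSC, beside 0.0495% of all genes. At an unadjusted p under 0.05 there were 3, namely Fos and Jund, with a larger KI effect in GMP, and Fosl1, with a larger one in ST-HSC, where 8.45% of all genes had such a p. The array medians were 5.00 to 5.10 in ST-HSC and 4.70 to 4.79 in GMP, which points to separate normalization, so no level was tested across the populations. Within that limit, Jund, Batf and Atf3 were lower in every WT GMP array than in every WT ST-HSC array, by 0.56, 0.63 and 1.04 in the mean, and by 0.45, 0.49 and 0.85 after quantile normalization over all 12 arrays. The other 7 members overlapped between the WT populations. How many of all genes were apart in this way was not counted, so these separations have no background and may not be particular to the members.

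Genes around AP-1 were read from lists of its kinases, phosphatases, regulators, partners and targets. Their counts, and those of the cell markers further on, stand beside 1.33% of all genes called higher and 1.68% called lower in ST-HSC, and 1.19% and 1.4% in GMP. Of 16 measured genes of the MAP kinase pathway to AP-1, by their brightest probe sets, none was called in ST-HSC. In GMP 1 fell, Map2k6, the kinase that activates p38. The brightest probe set of Mapk14 was not called, at 0.13 in ST-HSC and 0.14 in GMP, while 1 and 2 of its other probe sets were. For Braf 1 other probe set was called in ST-HSC. Map2k6 read 5.62, 5.58 and 5.79 in KI GMP-like cells and 7.60, 7.00 and 7.18 in WT (difference -1.60, SE 0.257, limma adjusted p = 0.0114). All KI arrays lay below WT, and in ST-HSC the difference was -1.06 (adjusted p = 0.0686). The adjusted p in GMP was 0.0608 with the Xist level as a covariate and 0.107 without the WT arrays of high Xist. The median over the kinase list was 0.07 in ST-HSC and -0.14 in GMP.

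Of 8 MAP kinase phosphatases, 1 rose in ST-HSC and none was called in GMP. This was Dusp4, which inactivates ERK and JNK in the nucleus, at 6.71, 6.66 and 7.43 in KI and 4.52, 5.28 and 5.47 in WT ST-HSC. The groups were apart by more than 1 log2 unit, with a difference of 1.85 (SE 0.280, adjusted p = 0.00635), and the adjusted p was 0.0565 without the WT arrays of high Xist. In GMP its difference was 0.21 (adjusted p = 0.830). None of the 7 measured regulators of Jun and Fos protein was called in either population, with differences from -0.43 to 0.72 in ST-HSC and from -0.78 to 0.79 in GMP.

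Of 18 other bZIP partners, Nfe2 rose in both populations, and the other 17 were not called. Nfe2 read 10.68, 10.58 and 10.57 in KI and 9.98, 10.04 and 9.41 in WT ST-HSC, and 10.40, 10.60 and 10.35 in KI GMP-like cells against 9.57, 9.65 and 9.72 in WT GMP. In both populations every KI array was above every WT array, and the differences were 0.80 (SE 0.168, adjusted p = 0.0356) and 0.81 (SE 0.168, adjusted p = 0.0372). Without 1 array the ST-HSC call was held in 4 of 12 fits, those without WT ST-HSC replicate 1 or 2 or KI GMP-like replicate 2 or 3, with adjusted p up to 0.122 in the others. The GMP call was held in 3 of 12, those without a WT ST-HSC array, with adjusted p up to 0.107 in the others.

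Of 21 immediate early and stress genes, by their brightest probe sets, 1 rose and 1 fell in ST-HSC and none was called in GMP. The brightest probe set of Klf6 differed by 1.39 in GMP (limma adjusted p = 0.0666), while its 4 other probe sets were called there. For Nfkbia in GMP, and for Klf4 and Btg2 in ST-HSC, 1 other probe set was called. Egr1, a zinc finger factor induced together with Fos, rose. It read 8.23, 8.52 and 9.08 in KI and 6.08, 5.19 and 6.67 in WT ST-HSC, a difference of 2.63 (SE 0.483, adjusted p = 0.0181). In GMP it read 7.03, 7.31 and 8.20 in KI and 6.13, 5.43 and 4.52 in WT (2.16, SE 0.483), just short of the threshold at an adjusted p of 0.0502. Every KI array was above every WT array in both populations, so Egr1 was higher in KI ST-HSC, where Fos was not. The ST-HSC call was lost in 3 of 12 fits that left out 1 array, those without replicate 2 of either genotype or replicate 3 of KI, with adjusted p up to 0.0842. Btg2, an antiproliferative gene, fell in ST-HSC, from 7.08, 7.80 and 7.42 in WT to 5.66, 6.01 and 5.97 in KI (-1.55, SE 0.241, adjusted p = 0.00726). Of 18 measured textbook AP-1 targets, none was called in ST-HSC, and in GMP 1 fell, Ccnd1, the gene of cyclin D1. Ccnd1 read 6.70, 6.51 and 5.93 in KI GMP-like cells and 8.28, 7.20 and 8.44 in WT (-1.60, SE 0.356, adjusted p = 0.0496), and 3 of 12 fits without 1 array held the call, those without WT ST-HSC replicate 2 or 3 or WT GMP replicate 2, with adjusted p up to 0.154 in the others. The median over the targets was 0.01 in ST-HSC and 0.05 in GMP. The calls of Nfe2 in both populations and of Ccnd1 were also lost with Xist as a covariate and without the WT arrays of high Xist, and those of Dusp4, Nfe2 and Ccnd1 when the 6 arrays of the population were fitted alone. Subtraction of the array medians also ended the Ccnd1 call (adjusted p = 0.0536). The methods' t-test after adjustment and SAM called none of the list genes that limma called at their brightest probe set.

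**Figure D4:**
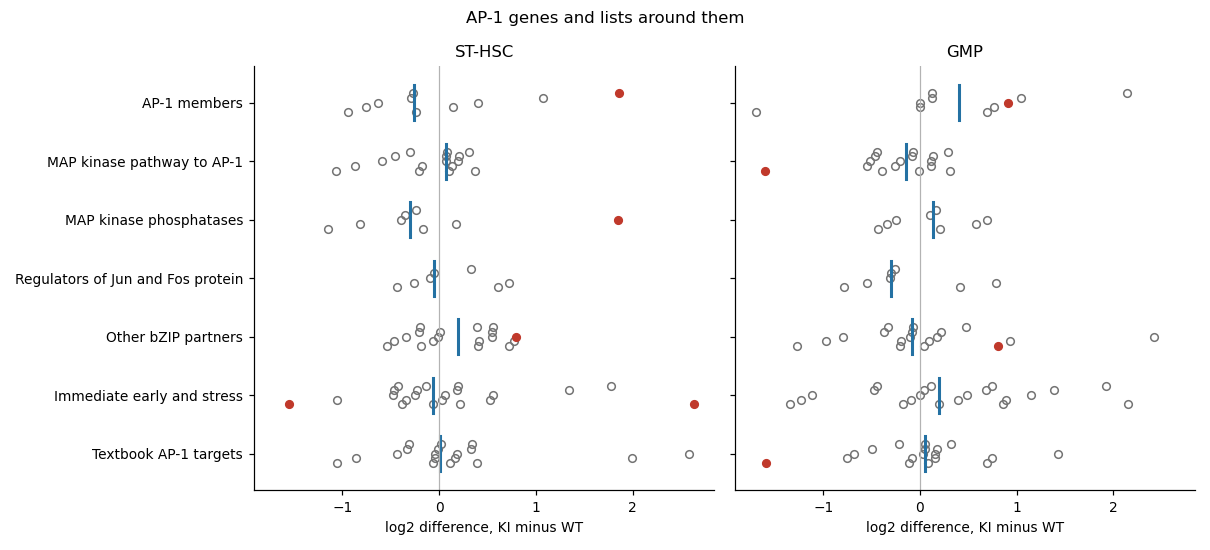
KI minus WT on the log2 scale (x axis) for each gene of the AP-1 set and of the lists around it (y axis) in ST-HSC (left) and GMP (right). Each circle is the brightest probe set of 1 gene, red filled circles are calls at an adjusted p under 0.05 in limma, and blue bars are the list medians. The calls are scattered over the lists, at most 2 in a list and population, and the medians lie between -0.30 and 0.41.

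The averages of several lists of markers of other blood cells were apart between KI and WT arrays. The mean log2 level of 5 measured erythroid markers was 6.43 to 7.01 in KI and 4.53 to 5.44 in WT ST-HSC, and 5.59 to 6.22 in KI GMP-like cells against 4.39 to 4.90 in WT GMP. Of these markers, 2 were called higher in ST-HSC and none in GMP in limma, and Hba-a1 and Alas2 were below the array median in every array. The mean of 6 megakaryocyte markers was 6.49 to 6.78 in KI and 5.28 to 5.78 in WT ST-HSC, where 2 were called higher, and 5.19 to 5.45 in KI and 4.71 to 5.24 in WT in GMP, where 1 was. Of the latter list Ppbp was below the array median in every array. The KI and WT ranges were apart for both lists in ST-HSC, and for the erythroid list in GMP, as those of Fosl1 and Nfe2 were. Conversely, 10 macrophage markers averaged 4.12 to 4.51 in KI and 5.34 to 5.74 in WT ST-HSC, with 1 called lower. They averaged 4.43 to 4.72 in KI GMP-like cells against 5.27 to 5.67 in WT GMP, again with 1 called lower. C1qb and C1qc were below the array median throughout. In ST-HSC 2 of the 10 in KI and 3 in WT lay above that median. Csf1r, which the study counts as a macrophage gene, was called lower in both populations, with a drop of -7.10 for ST-HSC and -3.92 for GMP. The macrophage averages can thus rest on few genes and do not show a drop of every marker. In ST-HSC 6 B cell markers averaged 4.81 to 4.92 in KI and 5.95 to 7.54 in WT, with 2 called lower, and 4 dendritic cell markers 3.83 to 4.22 and 5.19 to 6.69, with 1 called lower. Of 5 mast cell and basophil markers 2 were called higher in each population and 1 lower in GMP, and their averages overlapped. The 8 GMP markers averaged 10.12 to 10.58 in KI GMP-like cells against 11.26 to 11.36 in WT GMP, with 1 called lower. Among them Mpo differed by -0.07, and Elane by -1.61 without passing (limma adjusted p = 0.0865). Ms4a3, also of this list, is among the genes the study names as lowered in GMP-like cells. This average can thus rest on few genes and does not show a drop of every GMP marker. Of all 12 marker lists, 7 had KI and WT averages apart in each population. Single genes had all KI arrays above WT in 10.9% and below in 11.2% of cases in ST-HSC. In GMP these shares were 8.26% and 11.1%. How often averages of other gene lists come apart was not counted, so the 7 lists have no background of their own. Beside those named, these were the T and NK cell list (KI higher) and the hepatocyte list (KI lower) in ST-HSC, and in GMP the T and NK cell and endothelial lists (KI higher) and the dendritic cell and stem cell lists (KI lower). The 1 stem cell marker called lower in GMP was Cd34, at -2.87. Its protein is part of the sort gate, which the study's text gives as intermediate for KI GMP-like cells. The stem cell list was thus in part set apart by the sort. Below the array median in every array were 3 of 4 T and NK cell markers and 3 of 6 endothelial markers. So were 1 hepatocyte and 1 dendritic cell marker. The part of these cell types in the levels of Fosl1, Maff, Jund and Nfe2 was not tested.

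Over 11036 genes above the median level and 12 population-centred arrays, the genes whose pattern was most like that of Fosl1 were Rnf125 (Pearson r 0.978), Mgam (0.962) and Mfsd2b (0.958). For Jund they were Tmem127 (0.963), Capns1 (0.946) and Prkag1 (0.945), and for Jun they were Sst (0.917), Pafah1b1 (0.912) and Srcin1 (0.904). Within the 6 GMP arrays the genes like Jund had r of 0.953 to 0.988 with it. Within the 6 ST-HSC arrays r was 0.506 for Tmem127, 0.413 for Capns1 and 0.835 for Prkag1. The genes like Fosl1 differed between KI and WT by 2.73 to 5.71 in ST-HSC, and those like Jun by -0.18 to -0.09, less than Jun itself. The arrays of a group share their KI or WT state, so these values describe 12 arrays and carry no test.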

How the data were processed

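RNA of sorted cells was amplified linearly and hybridized to 12 Affymetrix MG430 v2 arrays. The authors normalized the arrays by RMA and deposited 1 log2 value for each of 45101 probe sets, a scale on which the method can compress small differences at low signal. No RMA version is stated in the sources used here, the files give no counts, and precision is limited by the number of arrays. After 64 control probe sets were left out, 45037 were tested with limma 3.58.1 in R 4.3.3, as 4 group means over all arrays (8 residual and 2.52 prior degrees of freedom), and p-values were adjusted by Benjamini-Hochberg over all of them. Genes were named by the platform annotation, from probe sets of 1 symbol (34945), and represented by the brightest. Intervals are at 95% and not adjusted. Single values were also compared by exact two-sided permutation tests. The test was checked on simulated data. All members are named, with the called genes of each list and the 3 genes most like Jun and each called member. Members and lists were chosen with earlier results of these data known. Equal replicate numbers did not count as pairs. Alternatives included the methods' t-test and SAM, written anew with 20 splits of 6 arrays and a median of 0 false calls.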

Additional observations from a re-analysis of the deposited data

How the results depend on the processing

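The count of AP-1 members called was 1 in each population. In ST-HSC it was 0 in the fit of only the 6 arrays, the methods' t-test and SAM. In GMP it was 0 in these 3, with the replicate block, with Xist as a covariate, without the WT arrays of high Xist (chosen after seeing the data), when the probe sets of a gene were averaged, and without KI GMP-like replicate 3, so that it ranged from 0 to 1 over the fits without 1 array. The Jun difference ranged from -1.40 to -0.44 in ST-HSC and from 0.35 to 1.36 in GMP when 1 array was left out. It reversed in GMP with Xist as a covariate (-0.28) and without the WT arrays of high Xist (-0.29), and the cause was not tested. Equal numbers were not treated as pairs of KI and WT samples, and the correlations of their deviations were small, from -0.04 to 0.07. These values do not exclude pairs in ST-HSC. In ST-HSC each KI sample correlated best with the WT sample of its number, in GMP none did. With the replicate block 617 probe sets were called in ST-HSC (996 without it), 468 in GMP (959) and 1 for the difference of the KI effects (22). The block ended the calls of Jund (adjusted p = 0.0524), Nfe2 (0.099) and Ccnd1 (0.113) in GMP and of Egr1 (0.0764) and Nfe2 (0.1) in ST-HSC. It ended no other call of a member or list gene at its brightest probe set. Between ST-HSC and GMP arrays of 1 genotype and number the deviations correlated at 0.0618 to 0.164 in WT, each highest with its own number, and at -0.1 to 0.0346 in KI. With genotype and number as a block across the populations, added after seeing the data, 18 probe sets and 0 members were called for the difference. Other counts were 7 in ST-HSC and 2 in GMP by the methods' t-test after adjustment, 162 and 43 by SAM, and in GMP 246 with only its 6 arrays, 607 with Xist as a covariate and 449 without the WT arrays of high Xist, which gave 114 for the difference. When 1 array was left out the counts ranged from 491 to 1039 in ST-HSC, from 548 to 1093 in GMP and from 7 to 59 for the difference. After median subtraction the 22 calls for the difference, 9 of them higher in GMP, became 17, of which 9 were higher. Of the 10 members, 6 kept the order of their 4 group means after quantile normalization over all arrays. The fit of 6 arrays, the t-test and SAM were not run for the difference. All other reversals were of uncalled differences: with Xist as a covariate Jund in ST-HSC (-0.0074) and Junb (-0.0766), Fosb (0.13) and Atf3 (-0.0172) in GMP; without the WT arrays of high Xist Fos in ST-HSC (0.57) and the second Jun probe set (-0.53), Fosb (0.24) and Atf3 (-0.17) in GMP. The mean of both probe sets reversed Jund in ST-HSC (-0.13), and median subtraction Atf3 in GMP (-0.0284). Leaving out 1 array reversed some as well, with ranges of -0.40 to 0.33 for the second Jun probe set in ST-HSC, -0.81 to 0.0181 and -0.32 to 0.0802 for the second Jund probe set in ST-HSC and GMP, -0.0114 to 0.38 for the second Fosl1 probe set in GMP, and -0.19 to 0.16 for Fosb, -0.0559 to 0.34 for Batf and -0.11 to 0.0917 for Atf3 in GMP. The 3 arrays per group limit all of these tests.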
